A study of Homo sapiens with 3 samples.

Results

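The amino acid transporter families SLC1, SLC3, SLC6, SLC7, SLC36, SLC38 and SLC43 were followed in LX-2 cells, an established line of human hepatic stellate cells, with or without recombinant human FGF19 (rhFGF19). Members were taken by gene symbol and by a transcript type that included protein coding, with 1 gene of SLC7 not analysed here. This gave 39 of the 26108 listed genes, of which 22 had a mean of at least 0.5 FPKM over the 3 libraries and entered the comparisons. FPKM scale the fragments of a gene to the length of its transcripts and to the mapped fragments of the library, so levels can be set side by side between genes, while the FPKM of a library need not add up to the same total as those of another.

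The study stimulated LX-2 cells to learn how FGF19 acts on the stellate cells of the liver, a source of fibroblasts in metastases. Poly(A) RNA was sequenced from 1 library of cells given vehicle, 1 library labelled with 50 ng/mL rhFGF19 and 1 labelled with 100 ng/mL. The last are called rhFGF19-50 and rhFGF19-100 here, after their titles. All 3 libraries came from the same line, with no other allele or agent in the labels. The titles and the agent labels give these doses, whereas the free-text descriptions give the opposite ones (100 ng/mL for the library titled 50, and 50 ng/mL for the library titled 100), with 72 and 73 h of stimulation against 24 h in the design text. With 1 library per condition there was no replicate check and no test, and every difference below is one between single libraries whose depth is unknown, since FPKM keep no counts. Both rhFGF19 libraries were set against the same vehicle library, and rhFGF19 therefore cannot be told apart from any other property of that library.

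Cells take up and exchange amino acids through carriers that divide the work by substrate and by driving force. Sodium-coupled carriers such as those of system A concentrate small neutral amino acids inside the cell, exchangers such as ASCT2 and LAT1 trade one amino acid for another, and carriers of the lysosome return amino acids to the cytosol and signal to the growth kinase mTORC1. Hepatic stellate cells make collagen when activated, and proline and glycine are its main building blocks.

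The cells carried mesenchymal transcripts, such as VIM at 439, 654 and 649 FPKM in the vehicle, rhFGF19-50 and rhFGF19-100 libraries and COL1A1 at 78.3, 108 and 104. Both were higher with rhFGF19, by log2 fold changes of 0.58 and 0.56 for VIM and 0.46 and 0.41 for COL1A1. These lay below the medians of all genes compared, 0.62 and 0.61. TIMP1, at 308, 184 and 193 FPKM, and TAGLN, at 223, 118 and 126, were lower, and ACTA2 stood at 8.55, 8.01 and 7.74. The 12 stellate or mesenchymal markers summed to 1109, 1166 and 1175 FPKM. LRAT, the enzyme of retinoid storage in stellate cells, was listed at 0 in all 3 libraries, and COL1A2 did not exceed 0.14. Markers of hepatocytes summed to 11.3, 12.5 and 11.5 FPKM, and those of epithelium and endothelium to at most 1.19. Blood cell markers summed to 51.8, 47.0 and 42.3 FPKM, almost all of it CD68, and HBB did not exceed 0.04.

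The members of these families differed widely in base composition, with which their differences from vehicle varied. The middle 120 coding bases of 3 of them are shown for this reason, with every G and C in capitals. Their order is middle, low and high GC content of the transcripts (54.6%, 38.1% and 62.0%). They were read 5′ to 3′ on the gene strand from GENCODE v29 (GRCh38). The stretch of SLC7A1 lies in 1 exon at chr13:29523313-29523432 (minus strand), that of SLC38A2 spans 2 exons at chr12:46364443-46364649 (minus strand) and that of SLC38A10 lies in 1 exon at chr17:81252403-81252522 (minus strand).
SLC7A1: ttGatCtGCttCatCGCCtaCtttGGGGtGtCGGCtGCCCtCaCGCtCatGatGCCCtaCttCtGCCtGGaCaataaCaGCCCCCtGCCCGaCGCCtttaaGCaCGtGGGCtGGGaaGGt
SLC38A2: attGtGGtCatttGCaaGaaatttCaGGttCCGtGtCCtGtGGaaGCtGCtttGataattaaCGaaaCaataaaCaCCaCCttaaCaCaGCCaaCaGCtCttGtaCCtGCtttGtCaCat
SLC38A10: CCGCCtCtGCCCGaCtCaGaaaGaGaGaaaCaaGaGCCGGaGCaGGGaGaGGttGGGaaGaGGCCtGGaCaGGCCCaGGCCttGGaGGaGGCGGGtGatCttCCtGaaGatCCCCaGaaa
G and C made up 58.3% of the stretch of SLC7A1, 40.8% of that of SLC38A2 and 60.8% of that of SLC38A10. Over the whole coding sequence the shares were 55.2%, 40.5% and 64.5%, and at the third base of the codon 69.2%, 41.7% and 76.3%.

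Of the 22 members compared, 7 were more than 2-fold higher in rhFGF19-50 than with vehicle, on the scale of log2(FPKM + 0.1), and none was more than 2-fold lower. Of all 12447 genes compared, 39.4% were more than 2-fold higher and 1.78% more than 2-fold lower, so the members' count lay near the background. In rhFGF19-100, 7 members were again more than 2-fold higher and none lower, beside 38.5% and 1.58% of all genes. SLC7A1, SLC36A1, SLC36A4, SLC38A1, SLC38A2 and SLC38A9 were past 2-fold in both rhFGF19 libraries (36.2% of all genes), SLC38A6 only in rhFGF19-50 and SLC7A6 only in rhFGF19-100. The median log2 fold change of the members was 0.29 and 0.24, below the 0.62 and 0.61 of all genes compared. In all, 13 members lay above vehicle in both rhFGF19 libraries, 8 lay below it in both, and SLC6A17 lay on either side. Taken singly, 13 members in rhFGF19-50 and 14 in rhFGF19-100 lay above vehicle, beside 8140 and 8165 of the 12447 genes. In a bulk library, fewer cells of a type and less RNA per cell cannot be told apart.

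**Figure D1:**
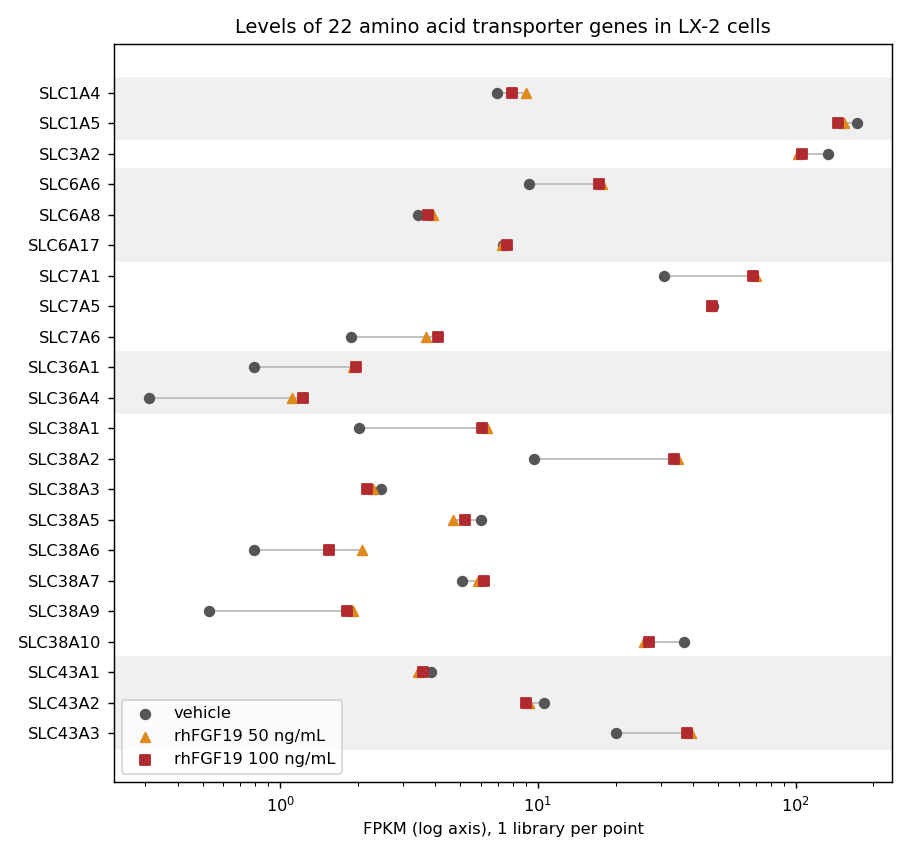
FPKM of the 22 compared members in the 3 LX-2 libraries, on a log axis, with 1 point per library and grey bands separating the families; there are no error bars because each condition had 1 library. The orange and red rhFGF19 points lie close together for nearly every gene, and the grey vehicle point lies well to the left of them for SLC7A1, both SLC36 genes, SLC38A1, SLC38A2 and SLC38A9.

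The 2 rhFGF19 libraries held almost the same levels of these carriers. None of the 22 members differed more than 2-fold between them, beside 0.852% of all genes higher and 0.884% lower in rhFGF19-100. The members' median absolute difference was 0.067 on the log2 scale (0.089 over all genes), and 21 of the 22 differed by less than 0.2. The exception was SLC38A6, by 0.40. The spread (SD) of this difference over all genes was 0.53 for genes with a mean of 0.5 to 2 FPKM, 0.22 from 2 to 10 and 0.13 above, and it is the only measure of spread between libraries that the data offer, although their doses differ.

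The exchanger SLC1A5 and the heavy chain SLC3A2 were the most abundant members in all 3 libraries. SLC1A5 (ASCT2), the main glutamine exchanger of many cultured cells, stood at 173 FPKM with vehicle, 154 in rhFGF19-50 and 146 in rhFGF19-100, and it ranked 259 among all genes in the vehicle library. Its level was lower in both rhFGF19 libraries, by 0.17 and 0.24 on the log2 scale. Relative to genes of like GC content it was nearly level, as given below. SLC1A4 (ASCT1), which exchanges serine, alanine and cysteine, stood at 6.93, 8.98 and 7.95 FPKM, log2 differences of 0.37 and 0.20, of which the second turned negative when the libraries were rescaled so that genes of at least 1 FPKM in all 3 had a median log2 ratio to vehicle of 0 (median rescaling). Both turned negative, to -0.44 and -0.59, when a trend on transcript length was removed. The glutamate transporters SLC1A1, SLC1A2 and SLC1A3 did not exceed 0.09 FPKM in any library. The sum over the SLC1 family was 180.0, 163.3 and 154.6 FPKM, so SLC1A5 carried nearly all of it.

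SLC3A2, the heavy chain that brings light chains of SLC7 to the cell surface, stood at 134, 102 and 106 FPKM. It was lower in both rhFGF19 libraries, with log2 differences of -0.39 and -0.34. SLC7A5 (LAT1), its light chain for leucine and other large neutral amino acids, stood at 47.8, 46.7 and 47.5 FPKM, nearly level over the 3 libraries, and its log2 differences of -0.03 and -0.01 turned positive with FPKM rescaled to the same total in each library (TPM). SLC7A6, a light chain that exchanges cationic for neutral amino acids, was far lower at 1.88, 3.69 and 4.10 FPKM, with log2 differences of 0.94 and 1.08. SLC7A6 overlaps SLC7A6OS on the opposite strand (2.97, 4.52 and 4.43 FPKM), and since the strand setting of the counting is not given in the sources used here, reads from their shared part cannot be told apart. The light chains SLC7A7, SLC7A8 and SLC7A10 stayed at or below 0.32 FPKM.

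The heavy chain exceeded the sum of the light chains followed here in every library. This sum takes in SLC7A5, SLC7A6, SLC7A7, SLC7A8 and SLC7A10 and leaves out the SLC7 gene not analysed here. It need not hold every partner of SLC3A2. SLC3A2 amounted to 2.67 FPKM per FPKM of summed light chains with vehicle, 2.01 in rhFGF19-50 and 2.03 in rhFGF19-100, while the light chains themselves summed to 50.2, 50.8 and 52.1 FPKM. SLC7A5 exceeded SLC7A6 25.4-fold with vehicle, 12.7-fold in rhFGF19-50 and 11.6-fold in rhFGF19-100. The FPKM ratio of SLC7A5 to SLC7A6 was therefore lower in both rhFGF19 libraries, with SLC7A6 higher and SLC7A5 nearly level. Relative to genes of like GC content this contrast was not seen, as given below.

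SLC7A1 (CAT1), the transporter of arginine, lysine and ornithine found in most cells, had the highest level of the members past 2-fold. It stood at 30.9 FPKM with vehicle, 69.9 in rhFGF19-50 and 68.4 in rhFGF19-100. As FPKM ratios this was 2.26-fold and 2.21-fold higher, with log2 fold changes of 1.17 and 1.14. SLC7A1 was below SLC7A5 in the vehicle library, at 0.647 FPKM per FPKM of SLC7A5, and above it in the rhFGF19 libraries, at 1.495 and 1.44. After median rescaling its log2 fold changes were 0.94 and 0.92, short of 2-fold, and with a trend on transcript length removed they were 0.24 and 0.23. The related SLC7A2 stood at 0.19, 0.54 and 0.73 FPKM and SLC7A4 at 0.05 or less, both under the minimum for comparison. The SLC7 family summed to 81.3, 121.2 and 121.3 FPKM.

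**Figure D2:**
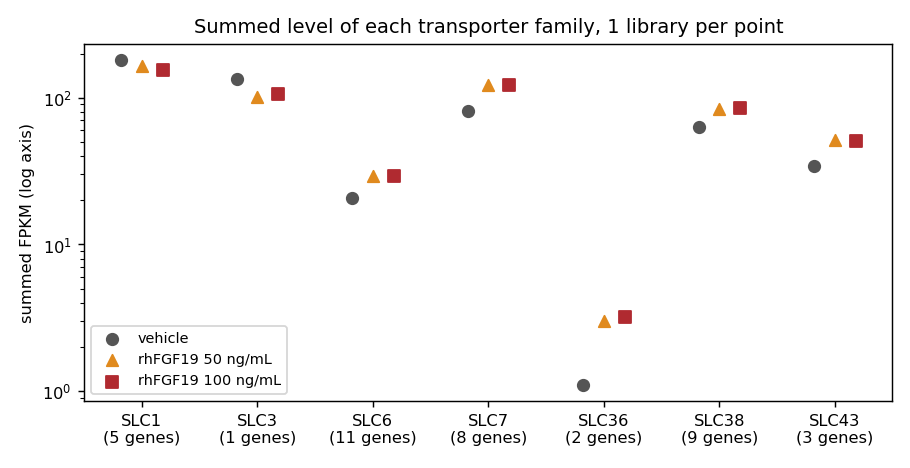
Summed FPKM of each family in the 3 libraries, on a log axis, with 1 point per library and the number of genes summed under each family name. The vehicle point is the highest of the 3 for SLC1 (180.0) and SLC3 (133.8) and the lowest for SLC6, SLC7, SLC36, SLC38 and SLC43.

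The system A carriers, which draw alanine, serine, proline and glutamine into the cell with sodium, had the highest log2 fold changes among members of at least 2 FPKM with vehicle. SLC38A2 (SNAT2) stood at 9.63 FPKM with vehicle and at 34.9 and 33.9 with rhFGF19, FPKM ratios of 3.63 and 3.52 and log2 fold changes of 1.85 and 1.80. SLC38A1 (SNAT1) stood at 2.03, 6.32 and 6.09 FPKM, with log2 fold changes of 1.59 and 1.54. The third gene of the system, SLC38A4, stood at 0.11, 0.44 and 0.64 FPKM and was too low to compare. In the deposited coordinates, which overlap GRCh38, all lie on the minus strand of chromosome 12, SLC38A1 at chr12:46183063-46269951, SLC38A2 at chr12:46358188-46372773 and SLC38A4 at chr12:46764761-46825997. All of these genes were highest in the rhFGF19 libraries, and the system summed to 11.8, 41.7 and 40.6 FPKM.

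The system N carriers, which move glutamine and histidine in exchange for protons, did not share this pattern in FPKM. Their compared genes had a median GC content of 57.9%, against 40.2% for those of system A. Values relative to genes of like GC content are given below. SLC38A5 (SNAT5) stood at 6.02, 4.70 and 5.19 FPKM, with log2 differences of -0.35 and -0.21. SLC38A3 (SNAT3) stood at 2.46, 2.29 and 2.18 FPKM, with log2 differences of -0.10 and -0.17, of which the first turned positive with TPM. The system N sum was 8.48 FPKM with vehicle against 6.99 and 7.37 with rhFGF19.

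Carriers of the lysosome were low to moderate in level. SLC38A9, the arginine-sensing carrier of the mTORC1 platform, stood at 0.53, 1.91 and 1.81 FPKM, with log2 fold changes of 1.67 and 1.60. SLC38A7, which exports glutamine from lysosomes, stood at 5.06, 5.85 and 6.16 FPKM, log2 differences of 0.21 and 0.28, of which the first turned negative after median rescaling and both, to -0.26 and -0.19, with the length trend removed. SLC36A1 (PAT1), a proton-coupled carrier of small neutral amino acids on lysosomes and at the cell surface, stood at 0.79, 1.92 and 1.97 FPKM (log2 fold changes of 1.18 and 1.22). Its relative SLC36A4 stood at 0.31, 1.11 and 1.23 FPKM (1.56 and 1.70), the only compared member that was under 0.5 FPKM with vehicle, so that its mean passed the minimum through the rhFGF19 libraries. With a pseudocount of 1 in place of 0.1, SLC36A1, SLC36A4 and SLC38A9 no longer reached 2-fold.

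The remaining SLC38 genes, whose substrates are less settled, went in opposite directions. SLC38A10 stood at 36.8 FPKM with vehicle, 25.8 in rhFGF19-50 and 27.0 in rhFGF19-100, the lowest log2 differences of the 22 members (-0.51 and -0.44). SLC38A6 stood at 0.79, 2.07 and 1.55 FPKM (1.29 and 0.89), and it overlaps TRMT5 on the opposite strand (0.44, 1.90 and 1.55 FPKM). The leading gene of the family was therefore SLC38A10 in the vehicle library, at 3.82 FPKM per FPKM of SLC38A2, and SLC38A2 in the others, where this ratio was 0.738 and 0.797. The family sum was 63.4, 84.3 and 84.5 FPKM.

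In SLC6, which summed to 20.7, 29.5 and 29.1 FPKM, the transporter of taurine differed most between vehicle and rhFGF19. SLC6A6, the taurine transporter, stood at 9.23, 17.8 and 17.2 FPKM, just short of 2-fold with log2 fold changes of 0.94 and 0.89. SLC6A8, the creatine transporter, stood at 3.43, 3.93 and 3.73 FPKM (0.19 and 0.12), and both differences turned negative after median rescaling and with the length trend removed. SLC6A17, a carrier best known from synaptic vesicles, stood at 7.34, 7.27 and 7.60 FPKM, level within the spread between the rhFGF19 libraries. The proline transporter SLC6A7 stood at 0.45, 0.30 and 0.31 FPKM, and the other SLC6 genes, among them the glycine transporter SLC6A9 at 0 in all libraries, did not exceed 0.12.

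The facilitators of SLC43 differed in direction. SLC43A3, known for carrying purine nucleobases rather than amino acids, stood at 20.1 FPKM with vehicle and at 39.2 and 37.8 with rhFGF19 (log2 fold changes of 0.96 and 0.91). It overlaps AP000781 on the same strand (1.08, 0.57 and 1.15 FPKM). SLC43A1 (LAT3) and SLC43A2 (LAT4), carriers of branched-chain and other large neutral amino acids, stood at 3.83, 3.41 and 3.58 FPKM and at 10.5, 9.27 and 8.95 FPKM. Their log2 differences lay between -0.09 and -0.23, and that of SLC43A1 in rhFGF19-100 turned positive with TPM.

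Over all 39 members the summed level was 514.7, 555.1 and 549.0 FPKM, and the 4 most abundant genes (SLC1A5, SLC3A2, SLC7A1 and SLC7A5) held 74.9%, 67.1% and 67.1% of it. At least 1 FPKM was reached by 18 members with vehicle and by 22 in each rhFGF19 library. All genes were not counted in this way. Their median log2 fold changes of 0.62 and 0.61 lay above those of the members, so the count does not set the members apart. The 17 members that were not compared reached at most 0.73 FPKM, and 11 of them stayed under 0.1 in every library. No family sum changed its direction against vehicle after median rescaling or with TPM. The sum over all members did change. At 1.08 and 1.07 times vehicle, it fell below vehicle after median rescaling, whose factors were 0.23 and 0.22 on the log2 scale.

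The differences from vehicle followed the GC content of the transcripts. GC content, taken as the median over the transcripts listed for a gene, ran from 37.3% for SLC36A4 to 62.0% for SLC38A10 among the members, with a median of 54.8% (51.2% over all genes compared). Across the 22 members, which share the same libraries, log2 fold change against GC content had a Pearson r of -0.86 and a Spearman rho of -0.84 in rhFGF19-50, and -0.84 and -0.82 in rhFGF19-100. Across all genes Spearman rho was -0.77 in both comparisons. Between the rhFGF19 libraries rho was 0.11 for the members, so the trend lay between vehicle and both of the others.

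Members low in GC were the ones with the high folds. All 5 members under 45% GC (SLC36A4, SLC38A1, SLC38A2, SLC38A6 and SLC38A9) were past 2-fold in rhFGF19-50, with log2 fold changes of 1.29 to 1.85, and 4 of them in rhFGF19-100. Of the 3421 genes under 45% GC, 85.5% and 84.3% were past 2-fold, so most genes of that composition did the same. The AT-rich stretch of SLC38A2 and the GC-rich stretch of SLC38A10 printed above stand for the ends of this range. Among the 17 members of 50% GC or more, 2 were past 2-fold in rhFGF19-50 (SLC7A1 and SLC36A1) and 3 in rhFGF19-100, where SLC7A6 was added. Of the 6713 genes in that range, 10.0% and 8.83% were past 2-fold. No member lay between these ranges. Whether GC content as such had a part in the differences was not tested.

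Each member was then set against genes of like GC content by taking off a local regression on GC, and the differences left were mostly small. SLC7A1 was left with 1.02 and 0.99 and was the only member past 2-fold, in rhFGF19-50, beside 3.85% of all genes higher and 5.07% lower. In rhFGF19-100 no member was past 2-fold, beside 3.39% and 4.52%. SLC36A1 was left with 0.78 and 0.83, SLC43A3 0.83 and 0.78, SLC6A6 0.68 and 0.63, and SLC6A8 0.58 and 0.49. For comparison, the lower and upper quartiles of all genes were -0.33 and 0.32 in rhFGF19-50 and -0.32 and 0.31 in rhFGF19-100.

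The system A genes came close to the trend, with 0.35 and 0.31 left for SLC38A2 and 0.18 and 0.15 for SLC38A1. Of the system N genes, SLC38A5 was left with -0.22 and -0.10 and SLC38A3 with 0.14 and 0.05. Much of the contrast in FPKM between these systems thus went with the GC trend. SLC38A9 was left with 0.19 and 0.13 and SLC36A4 0.05 and 0.19. SLC3A2 lay below the trend, at -0.52 and -0.46, and SLC38A6 was at -0.21 and -0.59. SLC38A10, the member with the lowest log2 difference from vehicle, was at -0.09 and -0.04. SLC1A5, the most abundant member, was at 0.02 and -0.07, and it ranged from -0.07 to 0.23 over the ways of setting the trend described next. SLC7A5, level in FPKM, lay above genes of its GC content by 0.34 and 0.35. SLC7A6 was left with 0.20 and 0.37, so it did not stand clearly above SLC7A5 on this scale. With GC content taken from the longest coding transcript, SLC7A6 was left with -0.20 and -0.03.

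GC content was also measured on the longest coding transcript and on the coding sequence, and the trend was also fitted over protein-coding genes alone. Over these ways and the first, 4 in all, and both rhFGF19 libraries, 12 members stayed above the trend and 3 stayed below it (SLC3A2, SLC38A5 and SLC38A6), while 7 changed side. In the first way alone, 16 members lay above the trend in both libraries and 4 below it, beside 5567 and 5429 of 12397 genes. All genes were not counted over the 4 ways together. Over the 4 ways SLC7A1 ranged from 0.73 to 1.02. It was past 2-fold in 1 of the 4 ways, and only in rhFGF19-50. The median of the members was 0.18 and 0.20 above the trend in the first way, where all genes had medians of 0.0079 and 0.0050.

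**Figure D3:**
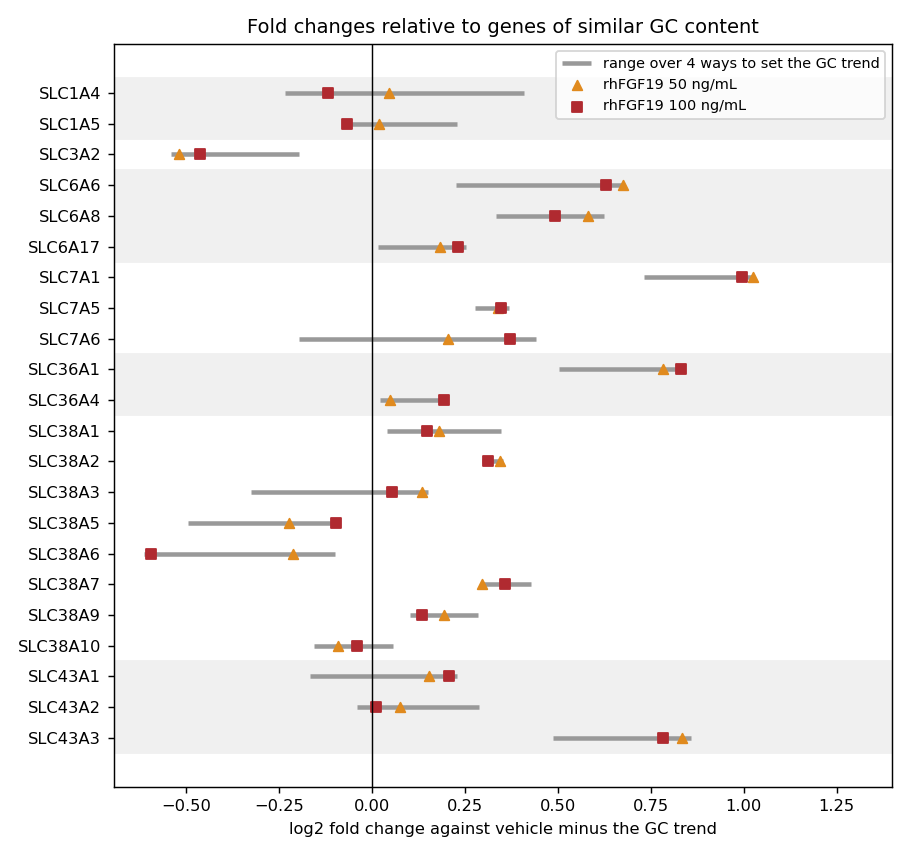
Log2 fold change against vehicle minus the GC trend (horizontal axis) for the 22 members, with a triangle for rhFGF19 at 50 ng/mL, a square for 100 ng/mL and a grey bar for the range over both doses and the 4 ways of setting the trend; the bars are not confidence intervals. SLC7A1 lies farthest to the right, with a bar from 0.73 to 1.02, SLC36A1, SLC43A3, SLC6A6 and SLC6A8 follow, and SLC3A2, SLC38A5 and SLC38A6 have bars wholly to the left of 0.

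Many genes of amino acid supply carry an amino acid response element, the composite site bound by ATF4 and C/EBP proteins. The 9 letters TGATGNAAN were searched on both strands in RefSeq windows (GRCh38.p14) from 250 bases before to 50 bases after each gene start, a total of 300 bases. Windows were found for 19 of the 22 compared members, 33 windows in all since genes can have several starts, and 5 windows (15.2%) of 5 members held the letters. Of all 35116 windows 3.61% held them, and of the 13037 windows of compared genes 1.87%. The matches are shown with up to 10 bases on either side, read 5′ to 3′ on the gene strand, with the matching letters in capitals.
SLC1A4: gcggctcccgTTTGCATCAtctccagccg
SLC1A5: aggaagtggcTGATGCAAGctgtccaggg
SLC38A1: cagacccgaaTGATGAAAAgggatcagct
SLC3A2: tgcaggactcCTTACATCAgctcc
SLC7A1: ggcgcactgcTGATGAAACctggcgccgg
The letters were on the gene strand in SLC1A5 (97 bases before the start, chr19:46784893-46784921), SLC38A1 (4 before, chr12:46266502-46266530) and SLC7A1 (8 after, chr13:29595663-29595691), which are all on the minus strand. They were on the opposite strand in SLC1A4 (8 before, chr2:64989381-64989409) and SLC3A2 (37 after, chr11:62881725-62881748), which are on the plus strand. Each distance is from the start of the window that held the match. SLC1A4, SLC1A5, SLC38A1 and SLC3A2 had other starts, whose windows did not hold the letters. In each of these genes the start with the match was the one farthest downstream. Of the 5 genes, SLC7A1 and SLC38A1 were past 2-fold in both rhFGF19 libraries, beside 36.2% of all genes. SLC1A4 differed by 0.37 and 0.20, and SLC1A5 and SLC3A2 were below vehicle. SLC36A1, SLC36A4, SLC38A2 and SLC38A9 were past 2-fold in both libraries as well, and none of their windows held the letters. Sequence outside the windows, such as introns, was not searched, so a gene without a match here may hold the letters elsewhere. A match is a run of letters and not a shown binding site.

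Genes that work with these carriers differed from vehicle in both directions. Of 15 carriers of other families for amino acids and peptides, 13 were compared, and 4 were more than 2-fold higher in rhFGF19-50 and 3 in rhFGF19-100 (30.8% and 23.1%, beside 39.4% and 38.5% of all genes), with none lower. Among them SLC25A12, the mitochondrial aspartate and glutamate carrier, stood at 0.72, 2.20 and 2.22 FPKM, and SLC25A29, a mitochondrial carrier of basic amino acids, at 13.9, 9.69 and 9.05. Their median log2 fold changes were -0.13 and 0.20, beside the 0.62 and 0.61 of all genes.

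Of 36 genes that sense amino acids for mTORC1, 31 were compared. More than 2-fold higher were 9 in rhFGF19-50 and 10 in rhFGF19-100 (29.03% and 32.3%, beside 39.4% and 38.5% of all genes). In each library 1 was more than 2-fold lower, beside 1.78% and 1.58% of all genes. The medians were -0.03 and 0.03. SEH1L, a subunit of the GATOR2 complex, stood at 1.02, 3.57 and 3.28 FPKM. LAMTOR4, a subunit of the Ragulator complex that holds mTORC1 regulators on the lysosome, stood at 64.6, 31.3 and 32.0 FPKM and was the only one more than 2-fold lower, with log2 fold changes of -1.04 and -1.01. With the GC trend removed these were -0.73 and -0.72. LAMTOR5 of the same complex (55.5, 42.7 and 42.0 FPKM, named after its values were seen) was then past 2-fold lower, at -1.49 and -1.50. It was the only 1 of this list, beside 5.07% and 4.52% of all genes lower in that setting.

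Of 23 enzymes of glutamine and non-essential amino acid metabolism, 20 were compared, with 9 higher in rhFGF19-50, 8 in rhFGF19-100 (45% and 40%, beside 39.4% and 38.5% of all genes) and none lower. Their medians were 0.61 and 0.55, beside 0.62 and 0.61 of all genes. ASNS, asparagine synthetase, stood at 1.77, 7.25 and 6.50 FPKM, log2 fold changes of 1.98 and 1.82, of which 0.68 and 0.54 were left after the GC trend was taken off. PHGDH, the first enzyme of serine synthesis, stood at 78.5, 45.7 and 47.4 FPKM (-0.78 and -0.73). PSPH (2.55, 5.31 and 5.86 FPKM, named after its values were seen) was left with 0.91 and 1.05 after the GC trend was taken off. It was then past 2-fold higher in rhFGF19-100 only, beside 3.39% of all genes.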

How the data were processed

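Poly(A) RNA of LX-2 cells was sequenced in 3 single libraries. HISAT2 was the authors' aligner, and the deposited values are FPKM with 2 decimals. The submitters' processing notes list HISAT2 2.0, StringTie 1.3.0, Bowtie 0.12.2, hg19 and mm8 without roles; which program gave the FPKM is not given in the sources used here. The coordinates of all 39 members overlapped those of GENCODE v29 (GRCh38). FPKM keep no read counts, so depth was unknown and no interval or count test was made. The FPKM summed to 302243, 276690 and 281606.

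Log2(FPKM + 0.1) was compared between libraries where a gene averaged 0.5 FPKM or more, and fold changes of low genes are understated on this scale. The study's criterion, an absolute log2 fold change above 1, was used to call genes. GC content came from GENCODE v29 transcripts (99.6% of 12447 genes compared), and trends were removed by lowess with a span of 0.3.

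Every member with a mean of at least 1 FPKM was named. From the other lists, the members with the highest and the lowest smaller fold change of 1 direction in both rhFGF19 libraries were named. SLC7A2, SLC38A4, SLC6A7 and the other members under the minimum were named to complete role groups. Members and lists were chosen with earlier results of these data known. The procedure was tested on simulated data. Python 3.11.15, NumPy 2.4.6, pandas 2.3.3, SciPy 1.17.1, statsmodels 0.14.6 and matplotlib 3.10.9 were used. Another 12 settings were tried, 3 of them chosen after seeing the data. The rule leaves out 1 gene, which is not analysed here.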

Additional observations from a re-analysis of the deposited data

How the results depend on the processing

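Counts and medians below are given for 50 and then 100 ng/mL. Percentages give the share of all genes more than 2-fold higher in the same setting. The count of members past 2-fold was 7 and 7 (39.4% and 38.5%). It became 3 and 3 with a pseudocount of 1 (17.6% and 16.7%). It became 1 and 0 with the GC trend removed (3.85% and 3.39%) and 3 and 4 with a length trend removed (14.0% and 13.6%). With both removed it was 0 and 0 (4.025% and 3.525%). It was also 0 and 0 in the 3 settings chosen after seeing the data. These were GC of the longest coding transcript (2.501% and 2.159%), GC of the coding sequence (5.318% and 4.651%) and a fit over protein-coding genes (2.953% and 2.527%). The count stayed within 1.5 times with a pseudocount of 0.01 (7 and 7, 41.4% and 40.4%) and with TPM (10 and 9, 44.4% and 43.1%). The same held with no filter, which counts all 39 members (9 and 9, 26.6% and 26.3%). It also held with a mean of at least 1 FPKM (6 and 6, 37.9% and 37.0%) and with median rescaling (5 and 5, 30.4% and 29.85%). Median rescaling sets the median log2 ratio to vehicle to 0 over genes that reached 1 FPKM everywhere. The median of the members, 0.29 and 0.24, became 0.14 and 0.14 with no filter, 0.21 and 0.20 with a mean of at least 1 FPKM, 0.062 and 0.018 with median rescaling, and 0.42 and 0.34 with TPM. It became 0.18 and 0.20 with the GC trend removed, -0.22 and -0.22 with a length trend removed, 0.23 and 0.19 with both removed, and 0.16 and 0.14 with coding GC. At 50 ng/mL alone it moved to 0.24 with the longest coding transcript and to 0.16 with the protein-coding fit. Median rescaling divided the rhFGF19 libraries by factors of 0.23 and 0.22 on the log2 scale and left the all-gene medians, 0.62 and 0.61, at 0.40 and 0.40. At 50 ng/mL SLC38A6 turned to -0.21 with the GC trend removed, -0.16 with both removed, -0.10 with the longest coding transcript, -0.23 with coding GC and -0.23 with the protein-coding fit. SLC36A4 turned to -0.0086 at 50 ng/mL with both removed, and SLC7A6 to -0.030 at 100 ng/mL with the longest coding transcript. No member was past 2-fold between the rhFGF19 libraries in any setting. Removing a trend takes its part of each difference away by construction, and beyond that the cause was not tested. No paired analysis was possible because each group held 1 library, which also leaves no library to omit.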
